A study of Bos taurus with 40 samples.

Results

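The genes described here build the sarcomere and its Z-disc in striated muscle, or couple electrical excitation to contraction. A list of 51 gene symbols, chosen by these roles, was matched to the count tables, and 41 of the 51 were listed among 13570 named genes. All 41 had a read in at least 1 sample, as did 13148 genes in the whole series. Nebulin (NEB), titin (TTN), MYBPC2, MYOM3, XIRP2, ANKRD2, ANKRD23, TRDN, JPH2 and UNC45B were not listed in the tables and were not analysed here. By role, 10 of 11 thin filament genes, 7 of 10 thick filament and M-band genes, 16 of 17 Z-disc and desmin genes, 1 of 3 muscle ankyrin repeat genes and 5 of 7 excitation-contraction genes were listed. Myoglobin (MB) and the myosin assembly gene SMYD1 made up the remainder.

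RNA came from liver, abdominal fat, longissimus dorsi muscle (a muscle of the back) and pituitary gland of 10 Korean cattle (Bos taurus), 5 cows and 5 bulls older than 22 months, with 1 library for each tissue of each animal. No treatment was compared, so the 8 groups of 5 samples differ by tissue and sex, and the 4 tissues of an animal are not independent of each other. The question asked was which genes are sexual dimorphic, either within a tissue (the M1 model, sex alone) or over all tissues (the M2 model, sex adjusted for tissue). Levels are given as CPM, the usual unit of read counts scaled to the size and composition of each library, and differences are log2 fold changes. A gene was called when its adjusted p was under 0.05 over all 13148 genes.

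A sarcomere is the repeating contractile unit of a striated muscle fibre. Thin filaments of actin, tropomyosin and troponin are anchored in the Z-disc by alpha-actinin and are pulled past thick filaments of myosin, which are held together in the M-band. Calcium released from the sarcoplasmic reticulum through the ryanodine receptor, in response to a signal from the surface membrane, starts the cycle, and calsequestrin stores that calcium between contractions. Several members also have forms outside striated muscle, since capping protein, tropomyosins and PDZ-LIM proteins organise actin in most cells, and desmin is also the intermediate filament of smooth muscle.

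The 40 libraries held 5173092 to 19165864 reads on genes, with a median of 10005607. Summed hepatocyte, adipocyte, pituitary endocrine and muscle fibre markers were each highest in every sample of their own tissue, and fibre markers outside muscle did not exceed 118 CPM against at least 62318 CPM in muscle. The library labelled as liver of bull 3 had 0 CPM of Y-linked genes and 1401 CPM of XIST, which goes against its label. The main counts of called members that use it are also given without it, as are LMOD2 between fat and liver and the MYOZ3 call. All other liver results include it, as do the M2 and interaction counts for the further contractile and calcium genes. Fat of bull 5 stood apart, with 5147 CPM of summed smooth muscle markers against 638 to 2898 CPM in the other fat samples. It had 2.16 CPM of Y-linked genes against 39.98 to 44.8 CPM in fat of the other bulls. Its XIST level was 1.39 CPM, against 316 to 981 CPM in fat of cows and 0.0841 to 0.724 CPM in fat of the other bulls. The animal numbers of cows 1 to 3 run in another series than those of the other 7 animals. Their share of reads outside genes was 42.3% to 53.3% in muscle, against 36.6% to 38.0% in cows 4 and 5 and 35.8% to 44.4% in bulls, and 46.7% to 52.1% in the pituitary gland, against 35.3% to 38.9% and 33.2% to 46.9%, so cow 2 lay within the range of bulls in both. Without these 3 cows, a choice made after seeing the data, only cows 4 and 5 were left to set against the 5 bulls. Then 0 members were called in each sex comparison and in the interaction. Of all genes, these fits called 1.14% for muscle, 1.03% for fat, 0.327% for the pituitary gland and 0.0228% for liver. With all animals the shares were 0.517%, 0.114%, 0.745% and 0.175% in the same order. The share was 0.951% against 1.69% for M2, and 0.487% against 0.335% for the interaction.

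The 41 genes took 18.1% to 29.3% of all reads on genes in muscle, 0.166% to 0.462% in fat, 0.0238% to 0.0555% in liver and 0.0406% to 0.0895% in the pituitary gland. The muscle sample with the largest share was that of cow 4. In muscle all 41 had a mean of at least 10 CPM, from CASQ2 at 149 CPM to ACTA1 at 65645 CPM, and none was without reads in any muscle sample. The same level was reached by 13 of the 41 in fat, 12 in liver and 11 in the pituitary gland. The means of 11 members in liver, 11 in fat and 9 in the pituitary gland were under 1 CPM. Since whole tissue was sequenced, fewer cells of a type and less RNA per cell cannot be told apart in any of these levels.

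**Figure D1:**
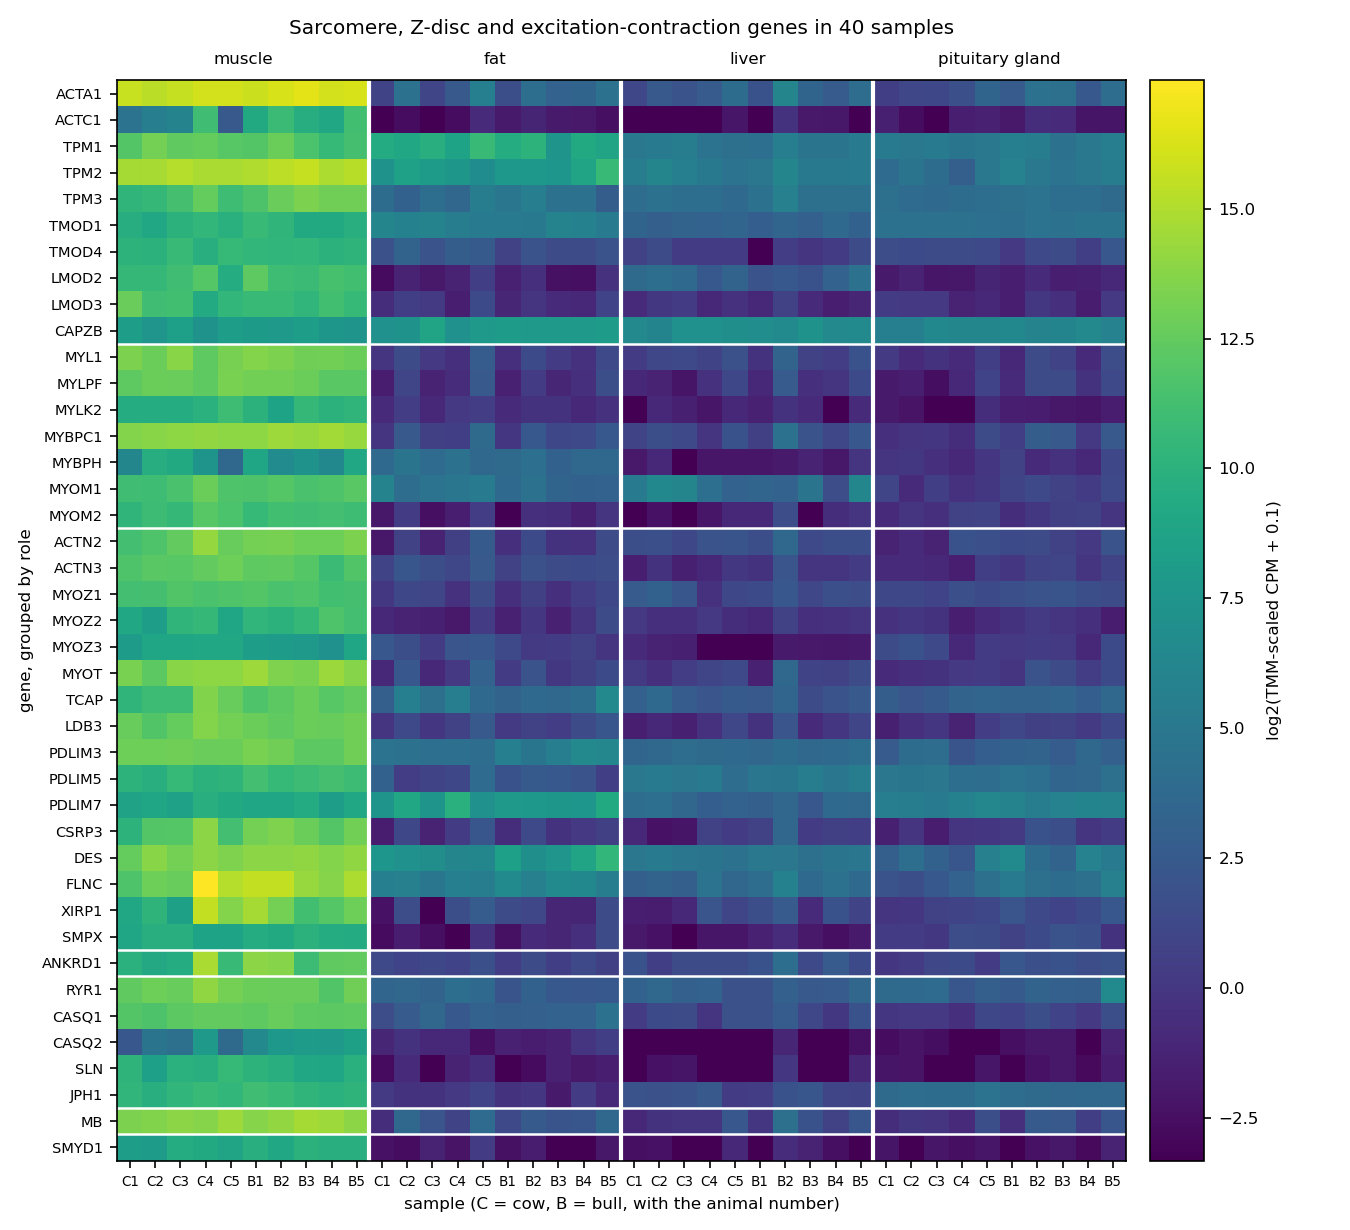
Heat map of the level of the 41 genes (rows, ordered by role) in the 40 samples (columns, grouped by tissue and sex), coloured by log2(CPM + 0.1). The muscle columns hold the highest levels of most rows, with low single values such as CASQ2 in cow 1 (4.83 CPM) and ACTC1 in cow 5 (5.39 CPM), and CAPZB stays above 50 CPM in every sample of the other tissues.

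Among the thin filament genes, skeletal alpha-actin (ACTA1), the main actin of the skeletal muscle thin filament, had muscle levels in cows 1 to 5 of 53503, 40375, 52284, 66008 and 66329 CPM. In bulls 1 to 5 ACTA1 stood at 58573, 74970, 101841, 66454 and 76112 CPM. These ranges overlap, and none of the 30 samples of other tissues exceeded 70.0 CPM, the value in liver of bull 2. Beta-tropomyosin (TPM2), which lies along the actin filament, ranged from 25639 CPM in cow 1 to 51678 CPM in bull 3. Tropomyosins are near-identical over long stretches, as are ACTA1 and cardiac actin (ACTC1), so the split of reads among them is uncertain where only uniquely mapped reads are counted.

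Among the thick filament genes, slow myosin binding protein C (MYBPC1), which ties myosin into the filament, ranged in muscle from 12783 CPM in cow 1 to 25127 CPM in bull 4. The alkali light chain MYL1, a subunit of fast myosin, ranged from 5074 CPM in cow 4 to 14045 CPM in cow 3. Of the Z-disc genes, myotilin (MYOT), which crosslinks actin at the Z-disc, ran from 4828 CPM in cow 2 to 22482 CPM in bull 1. Filamin C (FLNC), an actin crosslinker at the Z-disc and the membrane, spread far more widely and is described with the other variable genes. Of the coupling genes, the ryanodine receptor RYR1, the calcium release channel, ran from 3719 CPM in bull 4 to 16429 CPM in cow 4. The fast calsequestrin CASQ1 stayed between 3296 CPM in cow 2 and 6343 CPM in bull 2. Myoglobin (MB), the oxygen store of red fibres, ran from 10361 CPM in cow 1 to 25876 CPM in bull 3.

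Muscle means of other members follow by role. In the thin filament, the capping and length-control genes TMOD1, TMOD4, LMOD2, LMOD3 and CAPZB had means of 979, 1260, 2409, 2199 and 248 CPM. In the thick filament, the regulatory light chain MYLPF, the light chain kinase MYLK2 and the myomesins MYOM1 and MYOM2 had means of 6780, 1059, 3590 and 2279 CPM. At the Z-disc, the alpha-actinins ACTN2 and ACTN3 had means of 8086 and 4540 CPM, the titin cap TCAP 4870 CPM, the PDZ-LIM proteins LDB3 and PDLIM3 7217 and 7201 CPM, and CSRP3, a LIM protein of the Z-disc, 6677 CPM. Sarcolipin (SLN), which restrains the calcium pump, had a mean of 878 CPM. Levels were not scaled by gene length, so these levels set samples side by side and do not rank the genes.

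The comparison of tissues was made in all 40 samples with sex as covariate (edgeR quasi-likelihood test, adjusted over all genes). All 41 members were higher in muscle than in liver, where 34% of all genes were higher in muscle. The members' median log2 difference was 10.96, with a range of 1.11 to 12.93, against a median of 0.11 over all genes. Against the pituitary gland all 41 were higher in muscle, with 31.5% of all genes called in that direction and a median of 11.21 against -0.03 over all genes. Against fat 40 of 41 were higher in muscle, with 26.8% of all genes called in that direction and a median of 10.55 against -0.13 over all genes. The exception was CAPZB, the beta subunit of the protein that caps the barbed end of actin filaments.

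By role, the thin filament genes had the smallest median difference from liver, 8.71, and the thick filament and M-band genes the largest of the 4 groups with several members, 11.79. The Z-disc genes stood at 10.98 and the coupling genes at 10.90. Against fat the medians were 7.95 for the thin filament, 12.04 for the thick filament, 10.51 for the Z-disc and 9.72 for the coupling genes. Against the pituitary gland they were 9.61, 12.45, 10.48 and 10.34 in the same order. Of these 4 groups, the thin filament had the lowest median in each of the 3 comparisons and the thick filament the highest, and the difference between groups was not tested.

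In 37 of the 41 genes the lowest muscle sample lay above the highest of the 30 other samples, a pattern met by 4.65% of all genes. The 4 others were CAPZB, PDLIM7, TPM1 and MYBPH, and for each of these it was fat that reached into the range of muscle. The lowest muscle sample lay above every liver sample and every pituitary sample in 41 of 41 genes, against 14.4% and 13.9% of all genes, and above every fat sample in 37 of 41, against 8.97%. The ratio of the muscle mean to the mean of the next highest tissue exceeded 1000 in 19 genes, was 100 to 1000 in 13 and was under 100 in 9, with a median of 664. The largest ratios were 5186 for MYOT and 4954 for XIRP1, an actin-binding repeat protein. That next highest tissue was fat for 23 members, liver for 12 and the pituitary gland for 6.

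CAPZB had muscle levels of 313, 181, 333, 166 and 310 CPM in cows and 255, 236, 304, 206 and 170 CPM in bulls. In fat the levels were 148, 154, 444, 148 and 237 CPM in cows and 270, 246, 235, 238 and 280 CPM in bulls. The samples of both tissues overlapped almost entirely, and the highest of the 20 was fat of cow 3. The log2 difference between muscle and fat was 0.05 (SE 0.25, adjusted p = 0.859), and it turned to -0.72 (adjusted p = 7.60e-04) when only library sizes were used for scaling, a choice that moved the median of all genes in that comparison by -0.73. CAPZB was higher in muscle than in liver by 1.11 (SE 0.25, adjusted p = 2.24e-06) and than in the pituitary gland by 1.83 (SE 0.25, adjusted p = 4.5e-11). In liver it ran from 64.7 to 161 CPM and in the pituitary gland from 50.7 to 88.3 CPM, and the pituitary gland was lower than liver by a log2 difference of -0.72 (adjusted p = 0.00102), which turned direction with library sizes alone.

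PDLIM7, a PDZ-LIM adaptor that links actin-bound partners to kinases, had 393, 494, 390, 872 and 648 CPM in muscle of cows and 515, 504, 710, 329 and 561 CPM in muscle of bulls. Fat gave 178, 538, 177, 937 and 150 CPM in cows and 239, 216, 205, 189 and 643 CPM in bulls. Most fat samples were lower, while cow 2, cow 4 and bull 5 reached muscle levels. The difference of 0.65 (SE 0.25, adjusted p = 0.0388) passed the test, but the call was lost in 7 of 10 fits that each left out an animal, with adjusted p up to 0.115, and its sign turned to -0.14 with library sizes alone. Summed smooth muscle markers in fat ran from 638 to 5147 CPM, and their part in these levels was not tested.

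TPM1 encodes alpha-tropomyosin. Its fat levels were 727, 559, 905, 419 and 1710 CPM in cows and 740, 1124, 177, 625 and 440 CPM in bulls. Muscle levels were 3765, 8885, 5265, 6158 and 4331 CPM in cows and 3879, 7329, 3140, 1532 and 2650 CPM in bulls. The overlap rested on 1 fat sample, that of cow 5, which exceeded the muscle of bull 4. The mean in muscle was 6.32 times that in fat (log2 difference 2.65, SE 0.27, adjusted p = 3.25e-10).

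MYBPH, a relative of myosin binding protein C, overlapped through 1 very low muscle sample. Its muscle levels were 73.4, 772, 620, 176 and 13 CPM in cows and 477, 105, 158, 82.7 and 553 CPM in bulls. In fat it held a narrow range, with 14.1, 25.9, 15.5, 21.2 and 13.1 CPM in cows and 14.3, 18.8, 8.70, 13.3 and 12.2 CPM in bulls. Muscle of cow 5 fell inside the fat range, and every other muscle sample lay above it. MYBPH was higher in fat than in liver by 5.90 (SE 0.40, adjusted p = 5.5e-12) and than in the pituitary gland by 4.13 (SE 0.27, adjusted p = 4.48e-10).

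Desmin (DES), the intermediate filament that links neighbouring Z-discs, had 196, 149, 120, 70.6 and 73.6 CPM in fat of cows and 336, 132, 187, 442 and 1404 CPM in fat of bulls. The fat of bull 5, the sample with the most smooth muscle marker reads, was the highest by far. DES in muscle ran from 6114 CPM in cow 1 to 16680 CPM in bull 5, and its mean was 42.2 times the mean in fat. Tropomodulin 1 (TMOD1), which caps the pointed end of the thin filament, ran from 34.4 to 70.8 CPM in fat, 18.7 to 25.7 CPM in the pituitary gland, 7.29 to 13.4 CPM in liver and 548 to 1734 CPM in muscle. These 4 ranges did not overlap, so the order of TMOD1 was muscle, fat, pituitary gland and liver in every sample, and each step passed the test (adjusted p at most 4.09e-07).

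**Figure D2:**
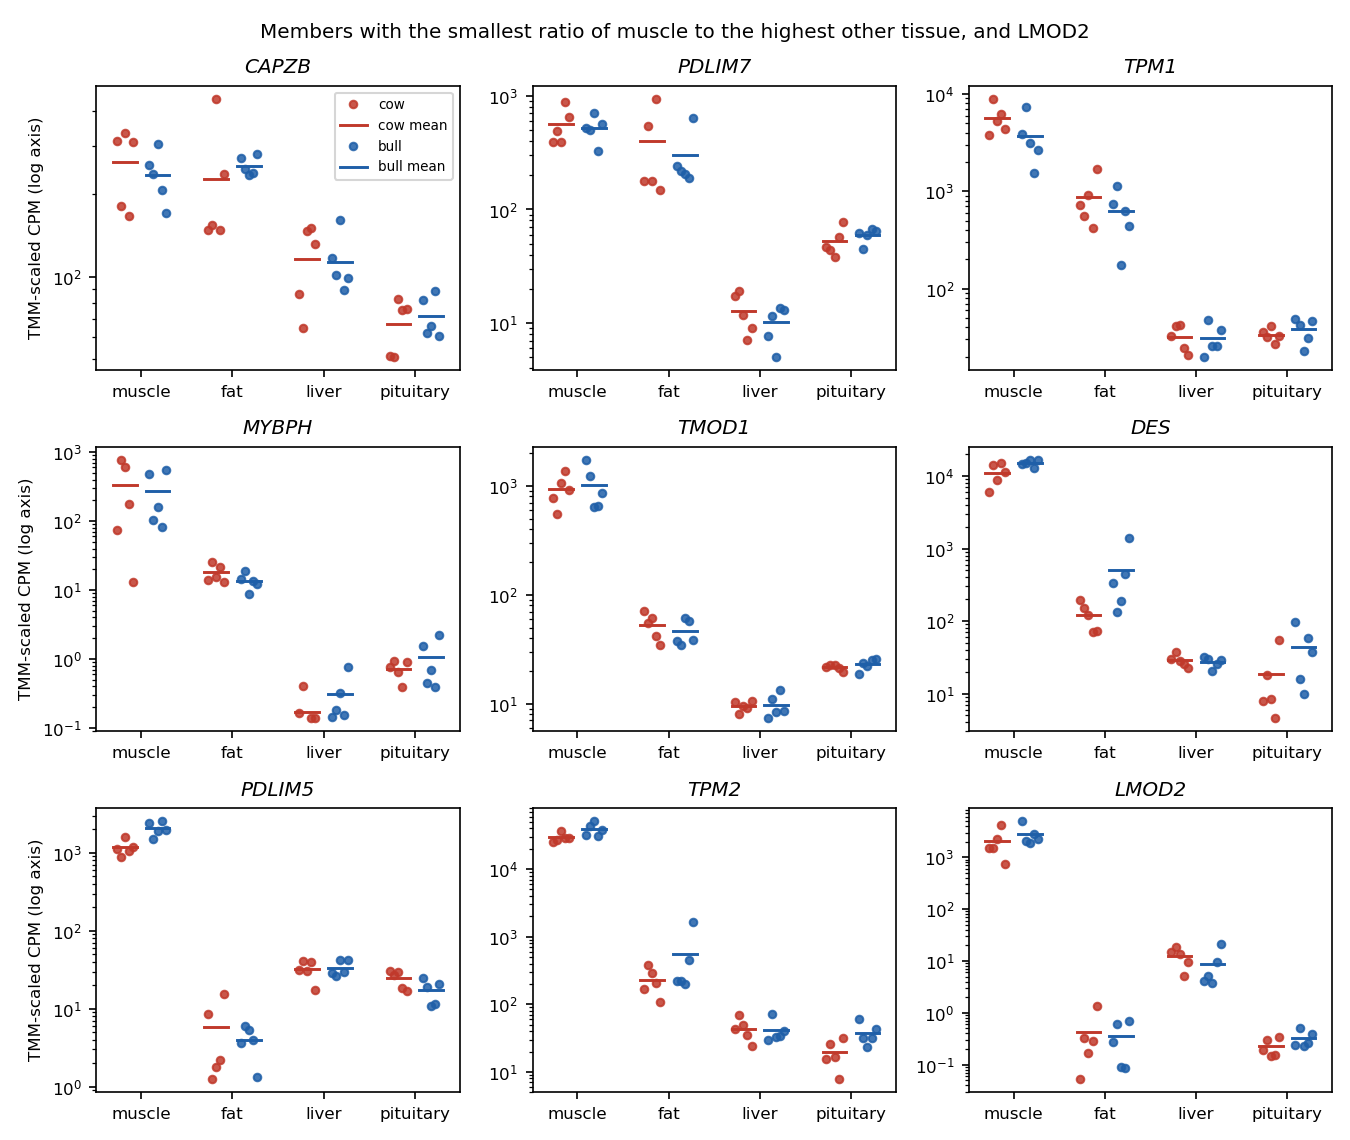
Level of 9 genes in the 40 samples on a log axis in CPM, by tissue and sex. Points are samples, and bars are the means of the 5 cows or 5 bulls. The 1 liver value of 0 for MYBPH is not drawn. CAPZB and PDLIM7 in fat reach the muscle level, while LMOD2 is near 0 outside muscle except in liver, where it lies between 3.71 and 21.1 CPM.

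Fat and liver differed in 23 of 41 members, 18 higher and 5 lower in fat, where 64.3% of all genes differed, 35.4% higher and 28.9% lower. Beside MYBPH, the members higher in fat included PDLIM7 (4.90), TPM1 (4.54), MYOZ3 (3.61), DES (3.17) and TPM2 (3.04). The 5 lower in fat were LMOD2 (-4.73), PDLIM5 (-2.73), JPH1 (-1.84), MYOZ1 (-1.39) and ACTN2 (-1.24), and the ACTN2 call was lost with library sizes alone and without bull 2. The pituitary gland and liver differed in 13 members, 8 higher and 5 lower in the pituitary gland, where 64.5% of all genes differed, 35.1% higher and 29.4% lower. Of those 5, CAPZB and CASQ1 turned direction and MYL1 lost its call when only library sizes were used for scaling. Fat and the pituitary gland differed in 23, 18 higher and 5 lower in fat, where 64.6% of all genes differed, 31.8% higher and 32.8% lower.

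Leiomodin 2 (LMOD2), which nucleates and lengthens thin filaments, was the member that most favoured liver over fat. Liver levels were 14.9, 18.6, 13.7, 5.19 and 9.57 CPM in cows and 4, 5.19, 3.71, 9.44 and 21.1 CPM in bulls. In fat LMOD2 did not exceed 1.34 CPM and in the pituitary gland 0.504 CPM, so no sample of either overlapped with liver. LMOD2 was 4.73 lower in fat than in liver on the log2 scale (SE 0.33, adjusted p = 5.31e-13) and -5.19 in the pituitary gland relative to liver (SE 0.35, adjusted p = 5.42e-14). Without the liver labelled bull 3 the difference between fat and liver was -4.83 (adjusted p = 2.83e-13).

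Myomesin 1 (MYOM1), which crosslinks myosin in the M-band, had liver levels of 38.6, 83.0, 68.8, 19.4 and 9.16 CPM in cows and 10.7, 8.95, 25.6, 2.97 and 74.6 CPM in bulls. Liver samples thus spanned from 2.97 to 83.0 CPM, with cows 2 and 3 and bull 5 at the top. In the pituitary gland MYOM1 did not exceed 2.35 CPM, below every liver sample, and the log2 difference from liver was -4.43 (SE 0.29, adjusted p = 5.1e-11). Fat, at 8.67 to 61.4 CPM, overlapped with liver, with a difference of -0.59 (SE 0.27, adjusted p = 0.202).

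JPH1, SMPX and RYR1 were higher in the pituitary gland than in both liver and fat. Junctophilin 1 (JPH1), which holds the sarcoplasmic reticulum against the surface membrane, had 14.4, 17.2, 15.9, 15.8 and 23.9 CPM in pituitary glands of cows and 17.4, 14.3, 11.5, 12.3 and 11.4 CPM in those of bulls. Every pituitary sample lay above every liver sample, of which the highest had 5.62 CPM, and above every fat sample, of which the highest had 1.73 CPM. JPH1 was higher in the pituitary gland than in liver by 2.31 (SE 0.27, adjusted p = 5.35e-11). SMPX, a small costamere protein, was higher there than in liver by 3.58 (SE 0.47, adjusted p = 1e-07), although at only 0.717 to 3.89 CPM. RYR1 was higher in the pituitary gland than in liver by 1.33 (SE 0.29, adjusted p = 0.00547), but here bull 5 held 101 CPM against 4.60 to 15.1 CPM in the other 9. Without bull 5 the difference was 0.42 (adjusted p = 0.159), and the call against fat was lost too, as it was with the animal as a replicate block.

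The members were next set beside 7 other genes of the muscle fibre (CKM, TNNT3, TNNI2, TNNC2, ATP2A1, MYH2 and PYGM). Each was expressed as a percentage of its level in muscle of the same animal by label, with the liver labelled bull 3 kept in. The median of these 7 was 0.00376% to 0.0738% in liver, highest in bull 2, 0.00714% to 0.0841% in fat, highest in cow 5, and 0.00345% to 0.0540% in the pituitary gland, highest in bull 3. The 7 genes differed widely within single samples. In fat of cow 4 the median was 0.00990%, with TNNT3 at 0.217%, ATP2A1 at 0.123% and PYGM at 0.0773%. TNNI2 was at 0% in every sample but fat of cow 2. Ratios to the median thus depend on the fibre genes chosen. For 18 of 41 members in liver, 20 in fat and 20 in the pituitary gland, the median percentage over animals was within 3 times that of the fibre genes. The same count was not made over all genes, so whether these shares are unusual is not known. ACTA1, for example, stood at 0.871 times the fibre genes in liver, 0.672 times in fat and 0.721 times in the pituitary gland, as medians over 10 animals. Whether these reads come from fibres in or beside the sampled tissue was not tested.

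Some members exceeded the median of the fibre genes by more than 5 times in each of the 10 animals, as single fibre genes also did in single samples. In liver these were 6 members (TPM1, TPM3, TMOD1, CAPZB, PDLIM5 and PDLIM7). In fat they were 6 (TPM1, TMOD1, CAPZB, MYBPH, PDLIM7 and DES). The pituitary gland had 8 (TPM1, TMOD1, CAPZB, MYBPH, MYOZ3, PDLIM5, PDLIM7 and JPH1). TPM1, TMOD1, CAPZB and PDLIM7 met this in all 3 tissues. How many of all genes meet it was not counted. LMOD2 in liver stood at a median of 18 times the fibre genes, with a range over animals of 3.38 to 230 times. In fat and the pituitary gland LMOD2 stood at medians of 0.690 and 0.789 times.

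**Figure D3:**
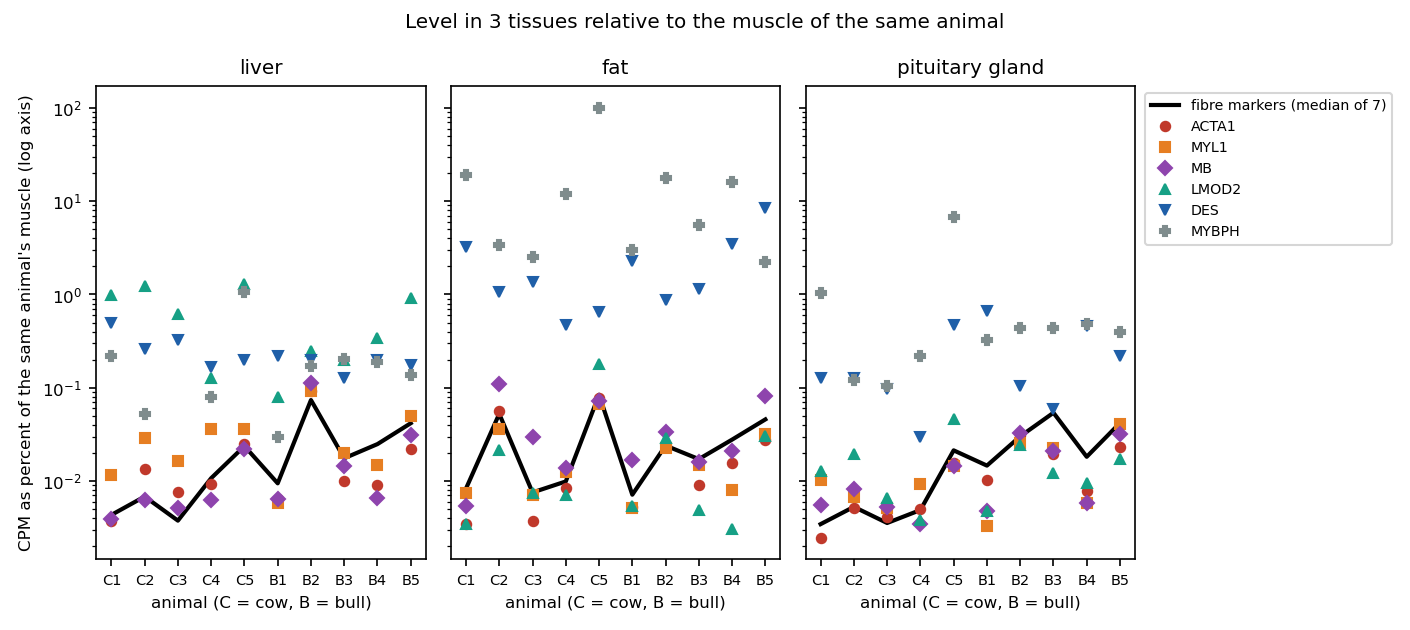
Level of 6 genes in liver, fat and pituitary gland as a percentage of the muscle level of the same animal by label (log axis). The median of 7 muscle fibre genes is a black line, and the 1 liver value of 0 for MYBPH is not drawn. ACTA1, MYL1 and MB lie near the black line in each tissue, while LMOD2 lies above it in liver and MYBPH and DES lie above it in fat.

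Within muscle the members differed in how much they varied between animals. The coefficient of variation over the 10 muscle samples had a median of 38.2% over members, against 31.5% for the 1893 genes with a mean of at least 100 CPM in muscle. It was largest for XIRP1 at 136%, FLNC at 133%, ANKRD1 at 124%, ACTC1 at 109% and MYBPH at 90.4%, and smallest for MYOZ1 at 17.6%, CASQ1 at 18.2% and TMOD4 at 19.3%. MYOZ1, which tethers calcineurin at the Z-disc of fast fibres, lay between 2351 CPM in bull 4 and 3885 CPM in bull 1. TMOD4, the skeletal muscle tropomodulin, lay between 898 CPM in cow 4 and 1641 CPM in cow 3.

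FLNC had 3390, 7617, 6452, 181520 and 35988 CPM in muscle of cows and 49484, 47589, 19998, 13552 and 30443 CPM in muscle of bulls. XIRP1, which also binds filamin C, had 520, 1149, 360, 48973 and 12853 CPM in cows and 25667, 8873, 2345, 4036 and 7691 CPM in bulls. ANKRD1, a stretch-responsive ankyrin repeat protein, had 1008, 596, 758, 28914 and 1614 CPM in cows and 14423, 13177, 1961, 5246 and 5550 CPM in bulls. In all 3 genes cow 4 was the highest of the 10 and cows 1, 2 and 3 were the lowest, and these 3 had more reads outside genes in muscle than cows 4 and 5. The part of that share in these levels was not tested. ACTC1, the cardiac actin also made in immature fibres, was lowest in cow 5 at 5.39 CPM, with 23.7, 46.9, 61.9 and 2201 CPM in cows 1 to 4. In bulls ACTC1 had 636, 1805, 811, 525 and 2252 CPM, all above every cow except cow 4. The scaling factor (TMM) of muscle of cow 4 was 0.518, against 0.646 to 0.912 in the other muscle samples, and a lower factor gives higher CPM values. Without cow 4 the coefficients of variation were 120% for ACTC1, 116% for XIRP1, 109% for ANKRD1 and 74.4% for FLNC.

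**Figure D4:**
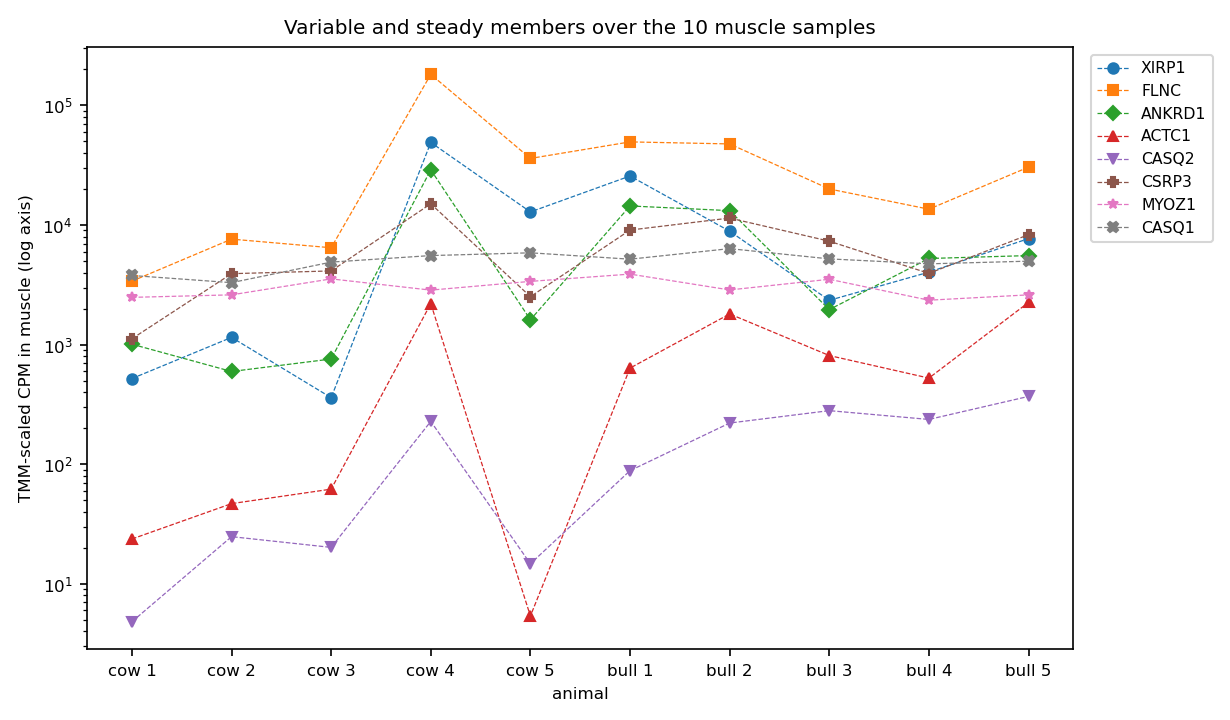
Level of 8 genes in the 10 muscle samples on a log axis in CPM, by animal, with points for samples and dashed lines only to guide the eye. XIRP1, FLNC, ANKRD1 and CSRP3 peak in cow 4, with FLNC at 181520 CPM, whereas MYOZ1 and CASQ1 stay near level across the animals.

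In the M1 model of muscle 0 of 41 members had a sex difference, where 0.517% of all genes were called (edgeR likelihood ratio test). At an unadjusted p under 0.05 there were 6 members and 1445 of all genes. The quasi-likelihood test and DESeq2 also called 0 members, where 0.0532% and 0.677% of all genes were called. The members' median log2 difference of bulls over cows was 0.13, against -0.04 over all genes. The 5 members with the smallest p were TPM3, PDLIM5, MYOZ2, CASQ2 and SMYD1, each with a higher mean in bulls and none past the threshold. In 0 members did all bulls lie above all cows, against 0.73% of all genes, and in 0 did all cows lie above all bulls, against 0.92%.

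TPM3, the tropomyosin of slow fibres, had 1245, 1511, 2603, 6109 and 2117 CPM in cows and 3293, 6595, 10749, 7946 and 7968 CPM in bulls. Bulls lay above cows 1, 2, 3 and 5 in every case, and cow 4 lay within the range of bulls. The log2 difference was 1.45 (adjusted p = 0.111), 1.99 (adjusted p = 5.24e-05) without cow 4 and 0.89 (adjusted p = 0.509) without cows 1 to 3. CASQ2, the calsequestrin of heart and slow fibres, had 4.83, 24.8, 20.2, 228 and 14.7 CPM in cows and 88.4, 221, 281, 237 and 369 CPM in bulls. Again cow 4 alone overlapped with bulls. The log2 difference for CASQ2 was 2.06 (adjusted p = 0.227), 3.91 (adjusted p = 6.90e-12) without cow 4 and 1.03 (adjusted p = 0.599) without cows 1 to 3.

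MYOZ2, the calsarcin of slow fibres, had 529, 320, 1222, 1448 and 517 CPM in cows and 1352, 1030, 1437, 3516 and 2500 CPM in bulls (log2 difference 1.30, adjusted p = 0.201). Cows 3 and 4 overlapped with the lower bulls. PDLIM5, a PDZ-LIM scaffold for kinases at the Z-disc, had 1131, 886, 1594, 1056 and 1202 CPM in cows and 2438, 1520, 1913, 2569 and 1992 CPM in bulls (0.84, adjusted p = 0.193). Only cow 3 exceeded the lowest bull. SMYD1, a methyltransferase that helps assemble myosin, had 331, 283, 736, 640 and 442 CPM in cows and 837, 566, 1058, 840 and 875 CPM in bulls (0.79, adjusted p = 0.308). Here cows 3 and 4 exceeded the lowest bull.

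The muscle result rested on cow 4. Without that animal 6 members were called, ACTC1, ANKRD1, CASQ2, CSRP3, MYOZ2 and TPM3, all higher in bulls, where 4.21% of all genes were called. Without cows 1 to 3, 0 members were called, where 1.14% of all genes were called. Library sizes alone called 1 member, TPM3 (adjusted p = 0.0384), where 0.555% of all genes were called.

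**Figure D5:**
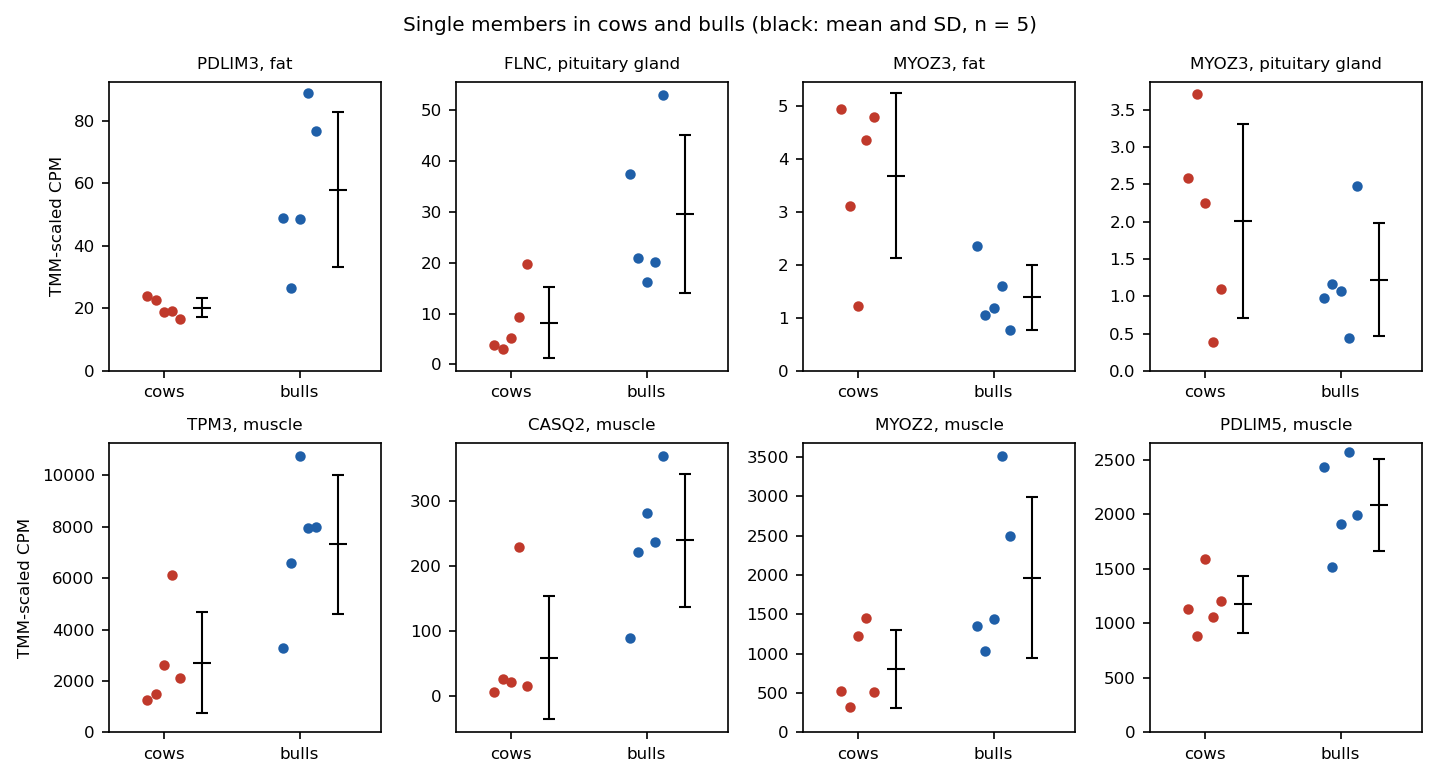
Level of 8 gene and tissue pairs in cows and bulls on a linear axis in CPM, with a point for each animal and the mean and SD (n = 5 for each sex) in black. PDLIM3 in fat shows no overlap of the sexes, FLNC in the pituitary gland overlaps through cow 5, and TPM3 and CASQ2 in muscle overlap through cow 4.

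The slow fibre character of the muscle samples was measured with genes that are no members, as the log2 ratio of the slow troponins TNNT1 and TNNC1 to the fast troponins TNNT3, TNNI2 and TNNC2. The ratio was -3.35, -2.74, -2.36, -0.61 and -2.35 in cows and -1.52, -0.58, 0.70, 1.53 and 0.20 in bulls. Cow 4 had the highest ratio of the cows and lay between bulls 1 and 2. With sex as covariate, 0 members and 0 of all genes followed the ratio (edgeR quasi-likelihood test, 0% of all genes), with 7 members and 1073 of all genes at an unadjusted p under 0.05. The slopes were 1.22 for CASQ2 (adjusted p = 0.263) and 0.66 for TPM3 (adjusted p = 0.348) per unit of the log2 ratio. The likelihood ratio test, DESeq2 and a fit with no sex term each called 2 members, CASQ2 and TPM3, where 0.266%, 0.304% and 0.243% of all genes were called. Ratio and members were read from the same libraries. All 5 bulls had higher ratios than cows 1, 2, 3 and 5, so outside cow 4 sex and ratio cannot be told apart.

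In fat 1 of 41 members had a sex difference, where 0.114% of all genes were called. PDLIM3, a PDZ-LIM protein that binds alpha-actinin, had 24.0, 22.6, 18.9, 19.1 and 16.8 CPM in cows and 49.0, 26.6, 48.7, 89.0 and 76.7 CPM in bulls. Every bull lay above every cow, as in 0.601% of all genes. Summed smooth muscle markers in the same samples were highest in bulls 5 and 4, at 5147 and 2898 CPM, lowest in cow 5 at 638 CPM and between 1088 and 1466 CPM in the other 7, and their part in the PDLIM3 difference was not tested. The means were 20.3 ± 2.93 CPM in cows and 58.0 ± 24.8 CPM in bulls (SD, n = 5 each), a log2 difference of 1.51 (SE 0.37, edgeR adjusted p = 0.0467). The call was lost in 9 of 10 fits that each left out an animal, in which the log2 difference stayed between 1.29 and 1.70 and adjusted p reached 0.397, and with the quasi-likelihood test (adjusted p = 0.779). Without cows 1 to 3 it was 1.66 (adjusted p = 0.156), and without fat of bull 5 it was 1.4 (adjusted p = 0.0945).

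RYR1 in fat had 10.7, 11.3, 9.51, 18.3 and 14.0 CPM in cows and 4.16, 8.69, 5.22, 4.88 and 5.18 CPM in bulls. Every cow lay above every bull, as in 0.692% of all genes, and the log2 difference of -1.20 did not pass the threshold (edgeR adjusted p = 0.345). DESeq2 called both PDLIM3 and RYR1 in fat, where 0.228% of all genes were called. Without cows 1 to 3 the RYR1 difference was -1.56 (edgeR adjusted p = 0.0803). DES had a log2 difference of 2.03 in fat (edgeR adjusted p = 0.252), 1.18 (adjusted p = 0.41) without fat of bull 5 and 2.78 (adjusted p = 0.148) without cows 1 to 3.

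In the pituitary gland 1 of 41 members had a sex difference, where 0.745% of all genes were called. FLNC had 3.79, 3, 5.22, 9.36 and 19.8 CPM in cows and 37.5, 20.9, 16.2, 20.2 and 53.1 CPM in bulls. The sexes overlapped only through cow 5, which lay above bull 3. The means were 8.24 ± 6.93 CPM in cows and 29.6 ± 15.5 CPM in bulls (SD, n = 5 each), a log2 difference of 1.83 (SE 0.47, edgeR adjusted p = 0.0334). The call was lost in 6 of the 10 fits that each left out an animal, namely cow 1, 2, 3 or 4 or bull 1 or 5, with adjusted p up to 0.158. With the quasi-likelihood test adjusted p was 0.246, and without cows 1 to 3 the difference was 1 on the log2 scale, with adjusted p = 1.

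Of the 41 members, 35 had a higher fitted level in pituitary glands of bulls, and the share of all genes higher in bulls was not counted. The members' median log2 difference was 0.53 against 0 over all genes. An unadjusted p under 0.05 was met by 13 members and 1219 of all genes. ANKRD1 had 0.884, 1.18, 2.10, 2.50 and 1.16 CPM in cows and 5.01, 3.28, 3.59, 2.95 and 3.46 CPM in bulls. All bulls lay above all cows, as in 0.852% of all genes (log2 difference 1.22, edgeR adjusted p = 0.0628), and in 0 members did all cows lie above all bulls, against 0.487% of all genes. ACTA1 had 1.33, 2.06, 2.17, 3.27 and 10.3 CPM in cows and 6.06, 23.2, 19.9, 5.16 and 17.6 CPM in bulls (1.91, edgeR adjusted p = 0.0628). The summed fibre genes in the same glands were 8.99 to 24.6 CPM in cows and 16.4 to 55.4 CPM in bulls, and the summed smooth muscle markers 49.0 to 247 CPM in cows and 80.6 to 680 CPM in bulls. Their part in these differences was not tested. Without cows 1 to 3 the differences were 0.98 for ANKRD1 (adjusted p = 0.999) and 1.08 for ACTA1 (adjusted p = 1). Without cow 5 there were 9 members called, ACTA1, ACTN3, DES, FLNC, LDB3, MB, MYBPC1, MYLPF and TPM2, where 1.76% of all genes were called.

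In liver 0 of 41 members were called, where 0.175% of all genes were called by the edgeR likelihood ratio test. The quasi-likelihood test and DESeq2 also called 0, where 0.00761% and 0.152% of all genes were called. At an unadjusted p under 0.05 there were 11 members and 980 of all genes. The median log2 difference was 0.64, against 0 over all genes. It was positive for 27 of 41 members, and the share of all genes with a positive difference was not counted. The summed fibre genes were 5.25 to 31.7 CPM in cows and 13.2 to 118 CPM in bulls, with bull 2 highest. In 0 members did all bulls lie above all cows, against 0.19% of all genes, or all cows above all bulls, against 0.357%. These overlap counts include the liver labelled bull 3 and were not repeated without it. Without that library the count of calls was again 0, where 0.464% of all genes were called.

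Over all tissues (M2), 1 of 41 members had a sex difference, where 1.69% of all genes were called. MYOZ3, a calsarcin of fast fibres, was lower in bulls by a log2 difference of -0.91 (SE 0.24, edgeR adjusted p = 0.0222). In muscle MYOZ3 had 275, 516, 502, 521 and 581 CPM in cows and 331, 294, 250, 145 and 479 CPM in bulls, and cow 1 was the only cow inside the range of bulls. In fat the levels were 4.94, 3.12, 1.23, 4.35 and 4.8 CPM in cows and 2.35, 1.05, 1.19, 1.6 and 0.773 CPM in bulls. In the pituitary gland they were 2.59, 3.71, 2.25, 0.390 and 1.09 CPM in cows and 0.970, 1.16, 1.07, 0.441 and 2.48 CPM in bulls, and the sexes overlapped. The within-tissue differences were -0.66 in muscle, -1.42 in fat, -0.71 in the pituitary gland and -0.64 in liver, none past the threshold alone.

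The MYOZ3 call was lost with the animal as a replicate block (-0.72, adjusted p = 0.431 by limma voom). That fit called 0.0608% of all genes, and both the method and the pairing differed from the main fit. The call was also lost with the quasi-likelihood test (adjusted p = 0.0556) and without cows 1 to 3 (-0.67, adjusted p = 0.339). MYOZ3 lost its call in 6 of 10 fits that each left out an animal, with adjusted p up to 0.114. It held without the liver labelled bull 3 (adjusted p = 0.025). Without cow 5 there were 11 members called, MYOZ3 with ACTA1, CASQ1, CSRP3, DES, LDB3, MB, MYBPC1, MYLPF, SMPX and TPM3, where 5.43% of all genes were called. Without cow 4 there were 6, MYOZ3 with ACTC1, ANKRD1, CASQ2, CSRP3 and FLNC, where 5.22% were called, and without bull 5 there were 3, MYOZ3, RYR1 and TPM3, where 3.49% were called. The test of whether the sex difference itself varied between tissues called 0 of 41 members, where 0.335% of all genes were called, with 9 members and 1128 of all genes at an unadjusted p under 0.05. The lowest was PDLIM3 (edgeR likelihood ratio test, adjusted p = 0.0599), which DESeq2 called.

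Of 34 further contractile and calcium genes, 28 were listed. In muscle 27 of these 28 were higher than in liver, against 34% of all genes, and 28 of 28 higher than in the pituitary gland, against 31.5%. Against fat 26 were higher in muscle, where 26.8% of all genes were higher, and parvalbumin (PVALB), a calcium buffer of fast fibres, had a log2 difference of -4.51. By the likelihood ratio test, 3 of the 28 had a sex difference in muscle, where 0.517% of all genes were called. The same test called 3 in the pituitary gland, all higher in bulls (0.745% of all genes), and 0 in liver (0.175%) and fat (0.114%). It called 3 for M2 (1.69%) and 2 for the interaction (0.335%). How these calls fare under other tests or without single animals was not examined. The 3 in muscle were as follows. The slow troponin TNNC1 was higher in bulls by 1.81 (edgeR adjusted p = 0.0224) and the slow regulatory light chain MYL2 by 1.86 (adjusted p = 0.00345), while the fast myosin heavy chain MYH1 had a log2 difference of -5.20, lower in bulls (adjusted p = 8.27e-24).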

How the data were processed

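Libraries from poly-A selected RNA of 40 samples were sequenced as paired-end reads. Per the labels and the study's methods, the authors trimmed reads with Trimmomatic, mapped them with Bowtie2 in TopHat2 to the UCSC bosTau7 genome, handled alignments with SAMtools and counted uniquely mapped reads per gene with HTSeq. The authors deposited raw counts per gene symbol, with reads outside genes (33.2% to 54.0%) and rows with no gene name (0.114% to 2.69% of reads) left out here, and the counting mode and use of strand are not given in the sources used here.

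From these counts, edgeR 4.0.16 with TMM factors fitted sex in each tissue (M1, 10 samples), sex with tissue (M2, 40 samples) and their interaction by likelihood ratio tests, and the tissue contrasts and the slow-to-fast troponin ratio by quasi-likelihood tests. Genes with at least 1 read in any sample were kept, with a prior count of 0.125 and Benjamini-Hochberg adjustment over 13148 genes. DESeq2 1.42.0 was an alternative. Log2 fold changes are bulls over cows or the first tissue over the second. CPM values use factors over all 40 samples. With 5173092 to 19165864 reads on genes, 3 reads equal 0.132 to 0.793 CPM, and intervals and floors of this kind cover counting error only. Each group holds 5 animals. In M1 and the troponin ratio fit, with 1 library per animal, p-values measure the spread between animals. M2, the interaction and the tissue contrasts treated the 40 libraries as independent, although each animal gave 4. Only the fits with the animal as a replicate block took this into account. For M2 and the interaction these used limma 3.58.1 with voom, a linear model of log counts, and a shared correlation within animals. For the tissue contrasts they were edgeR fits with a term for each animal. Named genes were those called, the extremes of level, fold and variation, and the 5 members with the smallest p in muscle. RYR1, DES, ANKRD1 and ACTA1 in the sex comparisons, and LMOD2, JPH1 and SMPX between tissues, were chosen after their values were seen. The members, gene lists and tests were chosen with earlier results of these data known. The fits were tested on simulated data. The animal pairs the tissues: over 60 pairs (the tissues of 1 animal taken in pairs, in 10 animals), deviations from group means correlated with a median of 0.22 (range -0.52 to 0.63).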

Additional observations from a re-analysis of the deposited data

Results flagged for a closer look

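In 38 of 213 sets of 5 samples (1 gene, tissue and sex, with at least 50 reads in the highest sample), or 17.8%, 1 sample lay far from the other 4 relative to the range of the set. About 1 in 20 such sets would be flagged by chance if the values were normally distributed. CPM values were used without logs, and every flagged sample but MYOZ3 in muscle of cow 1 was the high one. The chance rate for such values was not estimated, and genes of the same library are not independent of each other.

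Liver of bull 2 was far above the other bulls for 10 genes. ACTA1 was 70.0 CPM there against 3.72 to 16.8 CPM in the other 4, TPM2 72.3 CPM, TPM3 53.3 CPM, MYBPC1 22.9 CPM and ACTN2 12 CPM. MYOT was 13.1 CPM, CSRP3 11.5 CPM, FLNC 57.3 CPM, ANKRD1 18.3 CPM and MB 20.05 CPM against 0.858 to 4.63 CPM in the other 4. The same library had the highest share of the other muscle fibre genes among livers, 0.0738% of the level in its own muscle. The part of fibre RNA in these levels was not tested.

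In CPM, muscle of cow 4 was far above the other cows for 9 genes. Its TMM factor was 0.518, against 0.666 to 0.912 in muscle of the other cows, which raised its CPM values more than theirs. By reads, FLNC took 1228343 of the 13062901 reads on genes of this library. The flags were not repeated with library sizes alone. FLNC was 181520 CPM against 3390 to 35988 CPM, XIRP1 48973 CPM against 360 to 12853 CPM and ANKRD1 28914 CPM against 596 to 1614 CPM. ACTC1 was 2201 CPM against 5.39 to 61.9 CPM, ACTN2 19084 CPM, CSRP3 15038 CPM, MYOM1 7083 CPM, TPM3 6109 CPM and CASQ2 228 CPM. In other muscle samples LMOD2 was 5022 CPM and XIRP1 25667 CPM in bull 1, the highest of the bulls. LMOD3 was 6910 CPM in cow 1 against 684 to 2257 CPM, and MYOZ3 was low in the same cow at 275 CPM against 502 to 581 CPM. TPM2 was 36752 CPM in cow 3 and MYLK2 2052 CPM in cow 5, each the highest of the cows.

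Fat of bull 5 was far above the other bulls for 5 genes, TPM2 at 1644 CPM, TCAP at 90.7 CPM, PDLIM7 at 643 CPM, DES at 1404 CPM and CASQ1 at 21.3 CPM. This was the fat sample with the most smooth muscle marker reads. Fat of cow 5 was the highest of the cows for TPM3 at 44.8 CPM and ACTN2 at 5.98 CPM, and RYR1 in fat of bull 2 was 8.69 CPM against 4.16 to 5.22 CPM in the other bulls.

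In the pituitary gland RYR1 was 101 CPM in bull 5 against 5.82 to 9.83 CPM in the other bulls, and cow 5 was highest of the cows for ACTA1 at 10.3 CPM and DES at 54.3 CPM. In liver ACTA1 was 16.7 CPM in cow 5 and FLNC 24.6 CPM in cow 4, each the highest of the cows.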

How the results depend on the processing

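Counts of members that differed between muscle and each other tissue stayed on the same scale under every alternative tried, with 41 of 41 for liver, 39 to 40 for fat and 41 of 41 for the pituitary gland over the fits that each left out an animal. With the animal as a replicate block these counts were 41, 40 and 41, and for fat against liver, the pituitary gland against liver and fat against the pituitary gland 23, 16 and 23. No paired analysis was possible for sex within a tissue because cows and bulls are different animals. For M2 the block, fitted with limma voom, gave 0 members in place of 1, with 0.0608% of all genes called in place of 1.69%. The block moved no other count of members by over 1.5 times. Without the liver labelled bull 3, muscle against liver gave 41 members, fat against liver 22 and the pituitary gland against liver 14. The sex tests then gave 0 in liver (0.464% of all genes called), 1 for M2 (1.34%) and 0 for the interaction (0.342%).

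The counts for sex were not stable. The share of all tested genes called is given in brackets. In fat (1 member, 0.114%) the quasi-likelihood test (0.0228%), RLE factors (0.106%), library sizes alone (0.106%) and filterByExpr (0.0593%) gave 0 each. The fits without fat of bull 5 (0.137%) and without cows 1 to 3 (1.03%) also gave 0, and DESeq2 (0.228%) gave 2. In the pituitary gland (1, 0.745%) the quasi-likelihood test (0.0913%) and the fit without cows 1 to 3 (0.327%) gave 0 and DESeq2 (1.02%) 3. For M2 (1, 1.69%) the quasi-likelihood test (0.586%) and the fit without cows 1 to 3 (0.951%) gave 0. DESeq2 (2.12%) and library sizes alone (5.45%) gave 2 for M2. In muscle (0, 0.517%) library sizes alone (0.555%) gave 1, and for the interaction (0, 0.335%) DESeq2 (0.335%) gave 1. For the troponin ratio (0, 0%) the likelihood ratio test (0.266%), DESeq2 (0.304%) and the fit with no sex term (0.243%) gave 2 each. Leaving out an animal gave 0 to 1 members in liver (MB without cow 5, 0.517%) and in fat (PDLIM3 without bull 2, 0.0532%). It gave 0 to 6 in muscle (6 without cow 4, 4.21%) and 0 to 9 in the pituitary gland (9 without cow 5, 1.76%). For M2 it gave 0 to 11 (11 without cow 5, 5.43%). For the interaction it gave 0 to 4 (4 without cow 4, 1.5%), and for the ratio 0 to 1 (1 without bull 4, 0.0456%). The cause was not tested. The fits without cows 1 to 3 and without 4 samples high in fibre genes were chosen after seeing the data.

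CAPZB between muscle and fat, not called at 0.05, turned to -0.72 with library sizes alone, -0.12 with filterByExpr, -0.059 without cow 1, -0.046 without bull 5 (range -0.059 to 0.15 over the fits that each left out an animal) and -0.020 without the 4 samples high in fibre genes. With library sizes alone PDLIM7 between muscle and fat turned to -0.14 and MYOM1 between fat and liver to 0.11. That scaling moved the median of all genes by -0.73 between muscle and fat, -0.86 between muscle and the pituitary gland, 0.69 between fat and liver and 0.80 between the pituitary gland and liver. The PDLIM7 call was also lost with RLE factors (0.60, adjusted p = 0.0555) and with filterByExpr (0.49). For low members outside muscle, depth limits the comparison, since 3 reads equal 0.132 to 0.793 CPM.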
